A study of Drosophila melanogaster with 8 samples.

Results

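Eye discs of RMCE-1 larvae were compared with eye discs of mir-11 KO(w-) larvae, gene by gene, in 4 of the 8 libraries of a series on microRNA loci in Drosophila melanogaster. The members were chosen by stock label alone: both libraries whose stock is RMCE-1, a name given together with mir-11 and mir-998, and both libraries of mir-11 KO(w-), here the knockout. The eye disc is the larval epithelial sac from which the adult eye and antenna form. Each sample pooled 30 to 50 discs of larvae in the third instar, raised on standard medium at 25 °C, and the 2 libraries of each stock are biological replicates per the labels. The remaining libraries of the series come from RMCE-2, a stock named for the same microRNAs, and from the wild-type strain Canton S, with 2 replicates each. The letters RMCE usually mean recombinase-mediated cassette exchange, in which a cassette is swapped into a prepared locus. The sources used here do not give what was exchanged in RMCE-1 and RMCE-2 or how each stock was made. The design text speaks of wild type against unchecked miR-998 expression and does not say which stock that describes. No balancer, sex or clone is named for any stock. A difference in genetic background between the stocks and the change at the microRNA locus cannot be told apart in this design.

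MicroRNAs are short RNAs that repress target messenger RNAs by base pairing. In Drosophila, mir-11 and mir-998 lie together in an intron of E2f1, the activating E2F transcription factor that drives entry into S phase. miR-11 is known to repress the cell death genes rpr, hid, grim and skl, and miR-998 has been reported to repress Cbl, a negative regulator of the EGF receptor. In the eye disc of the third instar, a furrow sweeps forward across the epithelium, cells ahead of it divide, and cells behind it become photoreceptors.

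Total counts were 16071008 and 11929158 in RMCE-1, against 18290314 and 16656252 in the knockout, and lay between 13095980 and 19670470 in the other 4 libraries. Levels are given in CPM, each gene's reads relative to its library's total after scaling by the trimmed mean of M-values, and values are listed as replicate 1, then replicate 2. Transcripts that mark the eye disc were present in all 4 libraries, with eya at 212 and 196 CPM in RMCE-1, against 241 and 243 CPM in the knockout, and elav, a marker of neurons, at 181 and 148 CPM in RMCE-1, against 204 and 168 CPM in the knockout. RMCE-1 replicate 2 stood apart from its own replicate. In 133 genes the RMCE-1 replicates differed more than 4-fold, and 119 of these were higher in replicate 2. Between the knockout replicates 40 genes differed that much. The median absolute difference between replicates was 0.142 on the log2 scale in RMCE-1, against 0.0716 in the knockout. The 7 heat-inducible Hsp70 and Hsp68 genes summed to 42.8 and 5009 CPM in RMCE-1, against 33.0 and 44.6 CPM in the knockout. Larval fat body markers summed to 69.1 and 8460 CPM in RMCE-1, against 266 and 93.7 CPM in the knockout. Salivary gland markers summed to 209.8 and 4274 CPM in RMCE-1, against 709.7 and 384 CPM in the knockout. In each of these 3 sums RMCE-1 replicate 2 stood above the other 3 libraries, and RMCE-1 replicate 1 was within or below the range of the knockout. Sums for hemocytes (928 and 1078 CPM in RMCE-1, against 884 and 1033 CPM in the knockout) and glia (872 and 898 CPM in RMCE-1, against 850 and 914 CPM in the knockout) lay close together. In bulk tissue, a change in the number of cells of a type and a change in RNA per cell cannot be told apart. Genes described below are therefore mostly given per library, and the calls were repeated without RMCE-1 replicate 2.

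**Figure D1:**
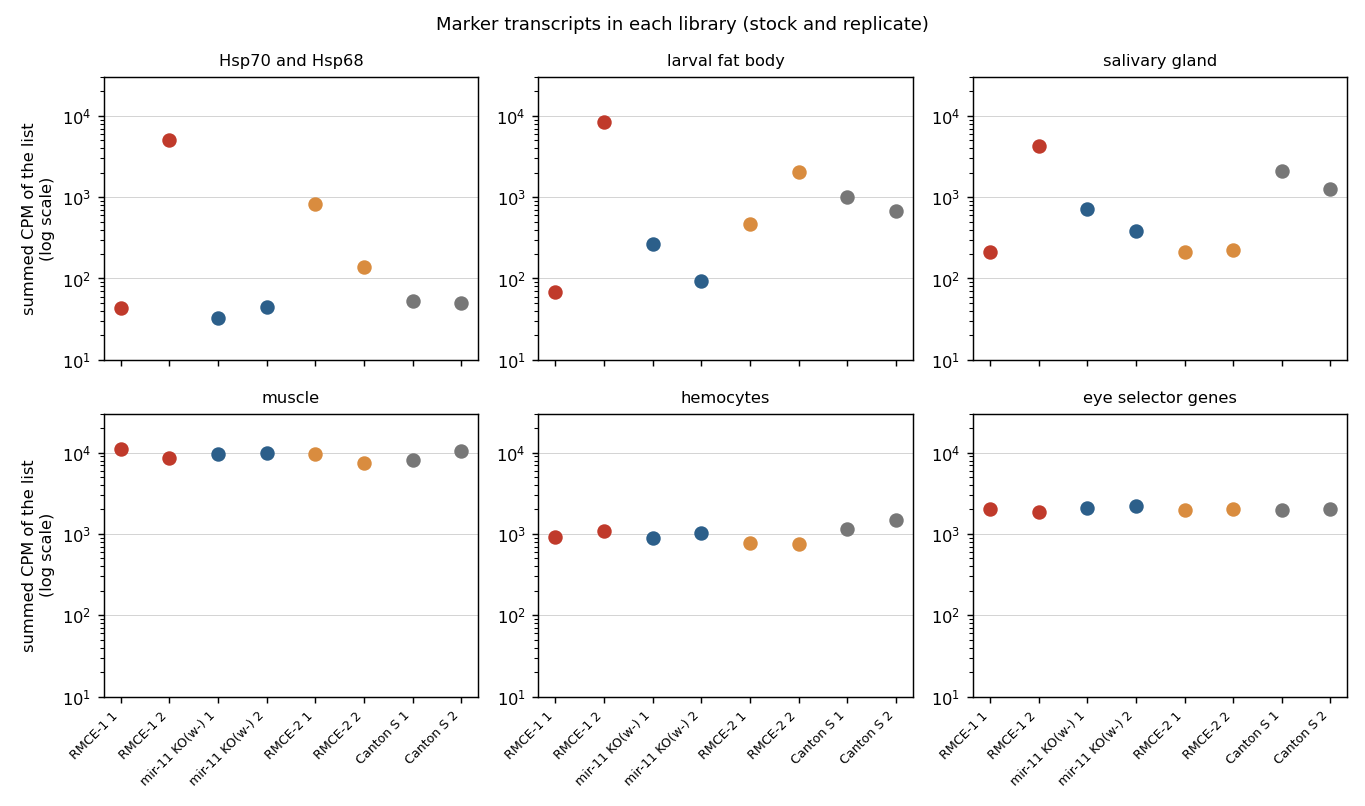
Summed level (CPM, log axis) of 6 marker lists in each of the 8 libraries, with RMCE-1 left of the knockout. The Hsp70 and Hsp68 sum is 5009 CPM in RMCE-1 replicate 2 and 42.8 CPM in RMCE-1 replicate 1, and the fat body sum is 8460 CPM in RMCE-1 replicate 2 and 69.1 CPM in RMCE-1 replicate 1.

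Few genes separated the stocks. Of 11068 genes with enough counts, 39 were called at an adjusted p under 0.05 (0.352%), 23 higher (0.208%) and 16 lower (0.145%) in RMCE-1, by edgeR's quasi-likelihood test with Benjamini-Hochberg adjustment over all genes tested. At an unadjusted p under 0.05, 999 genes (9.03%) passed, 498 higher and 501 lower. In each of the 39 called genes the RMCE-1 libraries and the knockout libraries did not overlap; over all tested genes, both RMCE-1 libraries lay above both knockout libraries in 18.4% and below both in 21.1%. DESeq2, another count test, called 143 genes, with all 39 among them. A change of at least 2-fold was seen in 27 called genes (0.244% of those tested), 16 higher and 11 lower. The direction of all 39 was kept when either RMCE-1 library was left out, which follows from libraries that do not overlap. Without RMCE-1 replicate 2, 15 genes were called, of which 11 were among the 39. Without RMCE-1 replicate 1, 177 were called, of which 29 were among the 39. Leaving out knockout replicate 1 or knockout replicate 2 lowered the count to 4 in each case. Leaving out RMCE-2 replicate 1, which enters only through the shared estimate of the spread, gave 17 calls, and leaving out RMCE-2 replicate 2 gave 22. The call was kept in all 8 of these fits by 3 genes, in 4 to 6 of them by 14, in 1 to 3 by 17 and in none by 5 (CkIIalpha-i3, Oseg4, CG15011, CG32512 and CG10359). The Canton S libraries also enter only through the shared estimate of the spread, and leaving out either of them lowered the number of calls too. For the fits that leave a stock with 1 library, that library is assumed to vary like the other stocks. Called genes in RMCE-1 were spread over both ends of the expression scale, from genes at or near 0 in the knockout to the abundant lncRNA:CR40469.

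**Figure D2:**
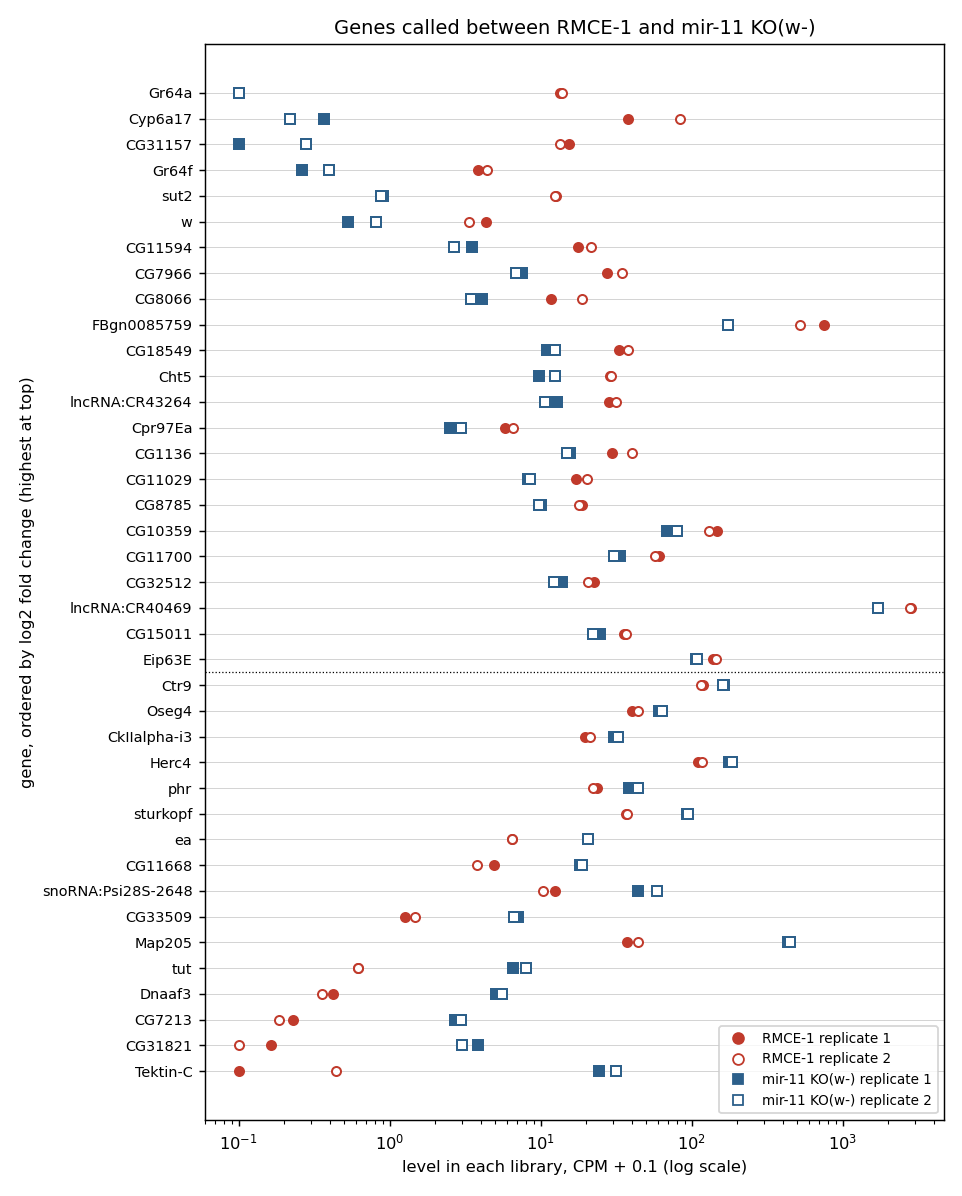
Level (CPM + 0.1, log axis) of the 39 called genes in each RMCE-1 library and each knockout library, ordered by fold change. In every gene the RMCE-1 points and the knockout points do not overlap, and Gr64a, CG31157, Tektin-C and CG31821 have libraries at 0.

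Map205, tut and sut2 were the genes whose calls held under each alternative setting tried and without each library in turn. Map205, a microtubule-associated protein that binds the mitotic kinase Polo, had 37.1 and 43.9 CPM in RMCE-1, against 430.0 and 449 CPM in the knockout. Both RMCE-1 libraries lay far below both knockout libraries, and RMCE-2 (469.5 and 428.5 CPM) and Canton S (448 and 471 CPM) were at the knockout's level. The log2 fold change was -3.44 ± 0.10 (SE; adjusted p = 4.89e-05), and the adjusted p reached at most 0.00315 when a library was left out, by the edgeR test. Map205 lies on chromosome arm 3R from 32055279 to 32068441 (BDGP6.54, minus strand).

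The gene tut (tumorous testis) encodes an RNA-binding protein that limits divisions of male germline cells with bam and bgcn. It had 0.513 and 0.514 CPM in RMCE-1, against 6.42 and 7.84 CPM in the knockout. RMCE-2 had 12.7 and 14.1 CPM and Canton S 1.58 and 1.40 CPM, so RMCE-1 was the lowest and RMCE-2 the highest of the 4 stocks. The log2 fold change was -3.78 ± 0.23 (SE; adjusted p = 0.00242 by edgeR's test), and the largest adjusted p without a library was 0.027. The sugar transporter gene sut2 went the other way, with 12.4 and 12.4 CPM in RMCE-1, against 0.803 and 0.772 CPM in the knockout. Its RMCE-2 libraries had 29.5 and 24.2 CPM, and Canton S was close to the knockout at 1.28 and 1.02 CPM. The log2 fold change was 3.96 ± 0.18 (SE; adjusted p = 0.000577, at most 0.0242 without a library, by edgeR's test). Of the other sut genes 1 passed the filter on low counts, sut1, with a log2 fold change of -0.04.

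**Figure D3:**
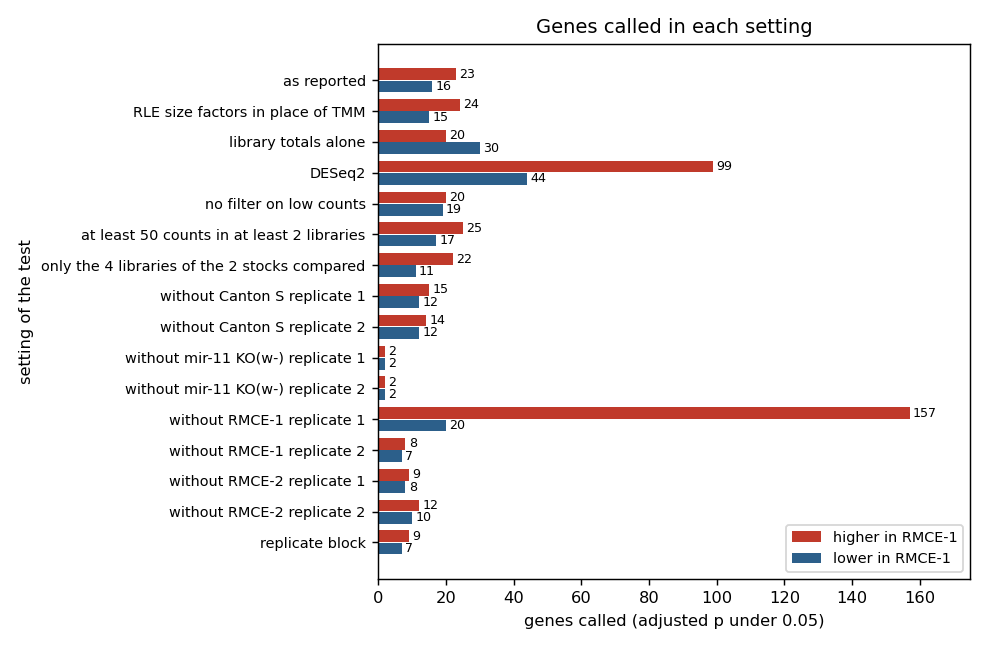
Number of genes called higher and called lower in RMCE-1, set against the knockout, under each processing setting and with each library left out. The count is 39 in the fit as reported, 4 without either knockout library and 177 without RMCE-1 replicate 1.

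Gr64a, a gustatory receptor for sugars that is expressed in taste neurons, had 13.3 and 13.8 CPM in RMCE-1, against 0 and 0 CPM in the knockout. The RMCE-1 libraries held 368 reads between them and the knockout none, so the level was at least 159.8-fold higher, taking a floor of 3 counts over the stock. RMCE-2 also had 0 in both libraries and Canton S 0.0493 and 0 CPM. The edgeR adjusted p was 0.0137, and it was 0.135 without knockout replicate 1, 0.145 without knockout replicate 2 and 0.101 without RMCE-1 replicate 2. Gr64f, another sugar receptor of the same cluster, had 3.72 and 4.29 CPM in RMCE-1, against 0.161 and 0.297 CPM in the knockout (log2 fold change 4.10 ± 0.44, SE; adjusted p = 0.0171). The Gr64f call was lost without either knockout library (adjusted p = 0.315 and 0.244), RMCE-1 replicate 2 (0.15) or either RMCE-2 library. Of 6 genes of the Gr64 cluster 2 had enough counts, Gr64a and Gr64f. Both passed the filter on low counts only through the RMCE-1 libraries. That both rose therefore follows from the filter and is no result about the cluster. Gr64b and Gr64c had no reads in any of the 4 libraries. No RMCE-1 library overlapped a knockout library in either called receptor.

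CG31157 had 15.3 and 13.2 CPM in RMCE-1, against 0 and 0.178 CPM in the knockout. The counts were 392 in RMCE-1 and 3 in the knockout, a scaled ratio of 170 with an exact 95% counting interval from 57.8 to 829. RMCE-2 (0.153 and 0.112 CPM) and Canton S (0.0493 and 0.0537 CPM) were as low as the knockout. The adjusted p of 0.011 by edgeR's test was 0.0623 without RMCE-1 replicate 2 and 0.0512 without RMCE-2 replicate 1.

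Cyp6a17, a cytochrome P450 known for a role in temperature preference, had 37.5 and 83.1 CPM in RMCE-1, against 0.268 and 0.119 CPM in the knockout. Here the knockout was the exception among the stocks, since RMCE-2 had 60.2 and 34.2 CPM and Canton S 24.8 and 35.4 CPM. The log2 fold change was 8.20 ± 0.80 (SE; adjusted p = 0.0433 by edgeR's test). The call was lost in 7 of 8 fits that left out a library, all but that without RMCE-1 replicate 1, with an adjusted p of up to 0.482. Over the whole set of cytochrome P450 and UDP-glucuronosyltransferase genes, Cyp6a17 alone was called among 81 tested, and DESeq2 also called Cyp6a23. In that set 20 had both RMCE-1 libraries above both knockout libraries (18.4% over all tested genes) and 12 had both below (21.1%). The median log2 fold change was 0.22, against -0.01 over all tested genes, and -0.07 without RMCE-1 replicate 2, and 10 genes of the families were over 4-fold higher in that library than in its replicate.

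The gene w encodes a pigment transporter and is widely used to mark transgenes. It had 4.23 and 3.26 CPM in RMCE-1, against 0.428 and 0.713 CPM in the knockout, whose label carries w-. RMCE-2 (2.22 and 1.90 CPM) lay between these, and Canton S (43.7 and 34.6 CPM) was the highest of all. The log2 fold change was 2.72 ± 0.28 (SE; adjusted p = 0.0137 by edgeR's test), and it lost its call without knockout replicate 1 (adjusted p = 0.139), knockout replicate 2 (0.0958) or RMCE-2 replicate 1 (0.0512). The gene kirre overlaps w on the opposite strand along 5868 bp, and the sources used here do not give the strand setting of the counting, so reads of the pair could not be told apart. Among 18 eye pigment genes tested, w was the single gene called. Of these 18, 4 had both RMCE-1 libraries above both knockout libraries (18.4% over all tested genes) and 3 both below (21.1%).

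In other genes that rose, RMCE-1 stood above all 6 remaining libraries. CG11594 had 17.5 and 21.4 CPM in RMCE-1, against 3.42 and 2.55 CPM in the knockout (log2 fold change 2.69 ± 0.20, SE; adjusted p = 0.00474), and its levels were 4.22 and 3.68 CPM in RMCE-2 and 3.75 and 3.66 CPM in Canton S. CG7966 had 27.4 and 34.4 CPM in RMCE-1, against 7.38 and 6.77 CPM in the knockout (2.12 ± 0.16, SE; adjusted p = 0.00474 by edgeR's test), with 7.67 and 6.81 CPM in RMCE-2 and 8.88 and 10.6 CPM in Canton S. Both calls were lost without knockout replicate 1 (adjusted p = 0.0603 for CG11594 and 0.107 for CG7966) or knockout replicate 2 (0.0833 and 0.123 in the same order). FBgn0085759, an identifier with no entry in the annotation used, had 755 and 523 CPM in RMCE-1, against 174.6 and 173 CPM in the knockout (1.88 ± 0.22, SE; adjusted p = 0.0458 by edgeR's test), with 184 and 161 CPM in RMCE-2 and 133 and 182 CPM in Canton S. Its call was lost in 5 of 8 fits with a library left out, without either knockout library, RMCE-1 replicate 2 (adjusted p = 0.0524) or either RMCE-2 library.

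In a further set the knockout was low and RMCE-1 was near Canton S. CG18549 had 32.6 and 37.9 CPM in RMCE-1, against 10.8 and 12.2 CPM in the knockout (log2 fold change 1.61 ± 0.11, SE; adjusted p = 0.00319), with 40.02 and 40.7 CPM in Canton S. CG8066 had 11.5 and 18.6 CPM in RMCE-1, against 4.01 and 3.33 CPM in the knockout (2.03 ± 0.25, SE; adjusted p = 0.0403 by edgeR's test), with 13.1 and 14.4 CPM in Canton S. In both genes RMCE-2 was at the knockout's level, at 11.7 and 10.9 CPM for CG18549 and 3.76 and 3.01 CPM for CG8066. CG18549 shares 733 bp on the same strand with CG5509, so its reads are uncertain, and it lost its call without knockout replicate 1 (adjusted p = 0.0727) or knockout replicate 2 (0.0614). CG8066 kept its call only without RMCE-1 replicate 1, with an adjusted p of 0.0794 without RMCE-1 replicate 2 and up to 0.482 without a knockout library. The noncoding lncRNA:CR43264 is overlapped by CG15765 on the opposite strand along 318 bp, so its reads are uncertain. It had 28.1 and 31.6 CPM in RMCE-1, against 12.8 and 10.6 CPM in the knockout (1.35 ± 0.14, SE; adjusted p = 0.0137), with 21.6 and 19.8 CPM in RMCE-2 and 40.2 and 33.4 CPM in Canton S. It lost its call without either knockout library, RMCE-1 replicate 2 (adjusted p = 0.0812) or RMCE-2 replicate 1.

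The calls included Cht5 and Cpr97Ea, genes of the chitinous cuticle. Cht5, a chitinase, had 28.8 and 29.0 CPM in RMCE-1, against 9.58 and 12.4 CPM in the knockout (log2 fold change 1.40 ± 0.14, SE; adjusted p = 0.0137 by edgeR's test), and RMCE-2 (26.7 and 25.0 CPM) and Canton S (26.6 and 31.5 CPM) were close to RMCE-1. Cpr97Ea, a cuticle protein gene, had 5.71 and 6.43 CPM in RMCE-1, against 2.41 and 2.85 CPM in the knockout (1.20 ± 0.16, SE; adjusted p = 0.0463). Its levels were higher still in RMCE-2 (14.5 and 16.3 CPM) and Canton S (10.4 and 11.7 CPM). Cht5 lost its call without either knockout library, RMCE-1 replicate 2 (adjusted p = 0.0794) or either RMCE-2 library, and Cpr97Ea kept it only without RMCE-1 replicate 1. Among 53 cuticle protein genes tested, Cpr97Ea alone was called (0.352% over all tested genes), and DESeq2 also called Cpr49Ag. Of these 53, 12 had both RMCE-1 libraries above both knockout libraries (18.4% over all tested genes) and 6 both below (21.1%). The list's median log2 fold change was 0.18. Without RMCE-1 replicate 1 that median was -0.24, so its direction turned on 1 library.

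The remaining genes called higher ranged in log2 fold change from 0.39 to 1.20. CG11029 had 17.1 and 19.98 CPM in RMCE-1, against 8.08 and 8.38 CPM in the knockout, a log2 fold change of 1.17 ± 0.12 (SE; adjusted p = 0.0137 by edgeR's test), but it shares 1805 bp on the same strand with CG11030. CG8785 had 18.8 and 17.8 CPM in RMCE-1, against 9.90 and 9.56 CPM in the knockout (0.91 ± 0.08, SE; adjusted p = 0.0105), with 31.8 and 32.5 CPM in RMCE-2. The lncRNA:CR40469 had 2819 and 2767 CPM in RMCE-1, against 1718 and 1712 CPM in the knockout (0.70 ± 0.09, SE; adjusted p = 0.0463). CG11700 had 60.8 and 57.0 CPM in RMCE-1, against 33.5 and 30.6 CPM in the knockout (0.88). CG32512 is overlapped by the gene bves on the opposite strand along 5264 bp, so its reads are uncertain. It had 22.4 and 20.6 CPM in RMCE-1, against 13.6 and 12.2 CPM in the knockout (0.73). In these genes, as in CG15011, with 35.6 and 36.4 CPM in RMCE-1, against 24.7 and 22.0 CPM in the knockout (0.62), the libraries did not overlap. Each gene of this paragraph lost its call without either knockout library, and each but CG8785 also without RMCE-1 replicate 2. CG10359, CG1136 and Eip63E are described below with their neighbours and their list.

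Among the genes that fell, Tektin-C, a filament protein of axonemes, had 0 and 0.343 CPM in RMCE-1, against 24.2 and 31.5 CPM in the knockout. The counts behind these were 0 and 4 reads in RMCE-1, against 452 and 530 in the knockout, and the log2 fold change was -7.48 ± 0.62 (SE; adjusted p = 0.0137 by edgeR's test). Canton S was as low as RMCE-1 (0.345 and 0.108 CPM) and RMCE-2 was higher than the knockout (63.6 and 57.2 CPM). The call was lost without knockout replicate 1 (adjusted p = 0.206), knockout replicate 2 (0.268), RMCE-2 replicate 1 (0.129) or RMCE-2 replicate 2 (0.125). Dnaaf3, an assembly factor of axonemal dynein, had 0.321 and 0.257 CPM in RMCE-1, against 4.98 and 5.47 CPM in the knockout (-4.13 ± 0.56, SE; adjusted p = 0.0474). For Dnaaf3 the knockout alone was high, since RMCE-2 had 0.230 and 0.112 CPM and Canton S 0.543 and 0.161 CPM. Oseg4, a part of the transport machinery inside cilia, had 40.2 and 44.1 CPM in RMCE-1, against 60.6 and 63.4 CPM in the knockout (-0.56 ± 0.08, SE; adjusted p = 0.0474 by edgeR's test), and overlaps drpr on the same strand. Dnaaf3 lost its call in 6 of 8 fits with a library left out, RMCE-1 replicate 2 (adjusted p = 0.254) and both knockout libraries (up to 0.491) among those left out, and Oseg4 lost it in all 8 (up to 0.597). A list of testis markers, tissue in which axonemal genes are strongly read, summed to 13.8 and 11.2 CPM in RMCE-1, against 15.5 and 14.4 CPM in the knockout. Genes of the Y chromosome were at or near 0 in all 4 libraries.

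CG31821 had 0.0641 and 0 CPM in RMCE-1, against 3.75 and 2.91 CPM in the knockout, which is 1 read in RMCE-1 and 119 in the knockout. The scaled ratio of the knockout over RMCE-1 was 91.3, with an exact 95% counting interval from 16.1 to 3637, and the edgeR adjusted p was 0.0137. RMCE-2 had 1.84 and 2.12 CPM and Canton S 5.43 and 3.71 CPM. The call was lost without either knockout library, RMCE-1 replicate 2 (adjusted p = 0.0564) or RMCE-2 replicate 1. The gene ea (easter) encodes the serine protease that activates the ligand of Toll in dorsoventral patterning of the embryo. It had 6.35 and 6.35 CPM in RMCE-1, against 20.5 and 20.4 CPM in the knockout (log2 fold change -1.69 ± 0.21, SE; adjusted p = 0.0402 by edgeR's test), with 21.5 and 13.9 CPM in RMCE-2 and 13.3 and 15.9 CPM in Canton S. A DNA photolyase gene, phr, had 23.5 and 22.0 CPM in RMCE-1, against 38.04 and 43.7 CPM in the knockout (-0.84 ± 0.10, SE; adjusted p = 0.0254), and levels were ordered with the knockout highest, then RMCE-1, RMCE-2 (18.7 and 18.7 CPM) and Canton S (12.4 and 13.3 CPM). CG33509 had 1.15 and 1.37 CPM in RMCE-1, against 7.01 and 6.59 CPM in the knockout (-2.43 ± 0.31, SE; adjusted p = 0.0404), and Canton S stood near 0 at 0.0493 and 0.0537 CPM. CkIIalpha-i3 had 19.6 and 20.9 CPM in RMCE-1, against 30.7 and 32.4 CPM in the knockout (-0.64 ± 0.08, SE; adjusted p = 0.0433). The calls of ea, phr, CG33509 and CkIIalpha-i3 each held in 2 or fewer of 8 fits with a library left out, and none of the 4 held without RMCE-1 replicate 2 or either knockout library.

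The small nucleolar RNA snoRNA:Psi28S-2648, of the class that guides pseudouridine formation in ribosomal RNA, had 12.2 and 10.2 CPM in RMCE-1, against 44.0 and 58.8 CPM in the knockout. Its log2 fold change was -2.19 ± 0.21 (SE; adjusted p = 0.0137 by edgeR's test). The knockout stood above all 6 other libraries, since RMCE-2 had 8.28 and 7.03 CPM and Canton S 8.04 and 11.1 CPM. The gene lies on chromosome arm 2L inside RpL36A on the same strand, so reads of its host could be counted to it. The call was lost without either knockout library, RMCE-1 replicate 2 (adjusted p = 0.11) or either RMCE-2 library. It was the single edgeR call among 205 snoRNA genes tested (DESeq2 called 2). Of these 205, 48 had both RMCE-1 libraries above both knockout libraries (18.4% over all tested genes) and 35 both below (21.1%). The list's median log2 fold change was 0.04.

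Some called genes were neighbours along the chromosome arms. Of the 39, 15 were on arm 3L, where they made up 0.716% of the genes tested, against 0.359% on 3R, 0.297% on X, 0.229% on 2R, 0.204% on 2L and no gene of the 86 tested on chromosome 4. Of 38 called genes with a position, 10 (26.3%) had an adjacent tested gene, on either side, that was called in the same direction, 7 of 22 higher (31.8%) and 3 of 16 lower (18.8%). Over all tested genes, 0.208% were called higher and 0.145% lower. A share of such neighbours over all tested genes is not given here, and the grouping was not tested. Positions are those of the BDGP6.54 annotation.

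The stretch with the most called genes held 4 that rose over 37.0 kb on arm 3L, from 4022700 to 4059660: CG11594, Gr64a, Gr64f and CG1136. CG1136 had 29.6 and 40.3 CPM in RMCE-1, against 15.5 and 14.9 CPM in the knockout (log2 fold change 1.20 ± 0.15, SE; adjusted p = 0.0425 by edgeR's test), and RMCE-2 (14.4 and 13.6 CPM) was at the knockout's level. The CG1136 call held only without RMCE-1 replicate 1 among the fits with a library left out. With 20 kb added on each side, the stretch also held 10 tested genes that were not called and 6 with too few reads to test. Gr64f overlaps CG11593 on the other strand by 53 bp, and that gene had 67.2 and 72.8 CPM in RMCE-1, against 60.7 and 56.9 CPM in the knockout, with no call. CG11594 overlaps Mul1 by 802 bp and CG1136 overlaps Dpy-30L2 by 748 bp.

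A stretch of falls lay on 3L from 1307224 to 1318330 (11.1 kb) and held Ctr9, sturkopf and Herc4. Ctr9, a subunit of the Paf1 complex that travels with RNA polymerase II, had 118 and 115.2 CPM in RMCE-1, against 164 and 161 CPM in the knockout (log2 fold change -0.48 ± 0.06, SE; adjusted p = 0.0294). The lipid droplet protein gene sturkopf had 36.4 and 36.9 CPM in RMCE-1, against 93.1 and 93.9 CPM in the knockout (-1.35 ± 0.09, SE; adjusted p = 0.00319 by edgeR's test). Herc4, a ubiquitin ligase gene, had 109.7 and 116 CPM in RMCE-1, against 175.4 and 184 CPM in the knockout (-0.67 ± 0.06, SE; adjusted p = 0.00929). The knockout resembled RMCE-2 in all 3 genes, with 166 and 159 CPM for Ctr9, 99.9 and 117 CPM for sturkopf and 184 and 185 CPM for Herc4 in RMCE-2. RMCE-1 was closest to Canton S in sturkopf (47.0 and 51.8 CPM) and Herc4 (105 and 105 CPM). Without knockout replicate 1 the calls of sturkopf (adjusted p = 0.0668), Herc4 (0.119) and Ctr9 (0.386) were lost, as they were without knockout replicate 2 (0.0718, 0.168 and 0.382 in the same order). Ctr9 kept its call only without RMCE-1 replicate 1, with an adjusted p of 0.106 without RMCE-1 replicate 2. Another 13 tested genes in the stretch and the 20 kb beside it were not called, among them Rac1, a small GTPase of the cytoskeleton. Ctr9 and sturkopf overlap by 87 bp on opposite strands.

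The stretch on 3R from 13038375 to 13051453 (13.1 kb) held calls in both directions. CG31157 and CG7966 rose, as given above, and CG11668 fell, with 4.81 and 3.69 CPM in RMCE-1, against 18.0 and 18.5 CPM in the knockout (log2 fold change -2.09 ± 0.18, SE; adjusted p = 0.00929 by edgeR's test). RMCE-2 (14.0 and 14.8 CPM) and Canton S (12.04 and 16.0 CPM) lay near the knockout for CG11668. Its call was lost without either knockout library or RMCE-1 replicate 2 (adjusted p = 0.054). Between them lies Hsc70-2, a member of the constitutive Hsp70 family, named after its values were seen. It had 36.5 and 37.0 CPM in RMCE-1, against 0.214 and 0.238 CPM in the knockout, with libraries that did not overlap. Its log2 fold change was 7.30 ± 0.86 (SE) and its adjusted p 0.0501 by edgeR's test, just outside the threshold. Hsc70-2 was called in 6 of 15 alternative settings, DESeq2 (adjusted p = 2.18e-18) and the 4 libraries alone (0.000363) among them, and its adjusted p was 0.694 and 0.743 without a knockout library and 0.228 without RMCE-1 replicate 2. RMCE-2 had 0.230 and 0.391 CPM of Hsc70-2 and Canton S 2.07 and 0.269 CPM. Hsc70-2 was close between the RMCE-1 replicates, while the heat-inducible Hsp70 genes differed between them as given above. Next to this stretch pic, a part of a ubiquitin ligase that binds damaged DNA, had 219 and 237 CPM in RMCE-1, against 195 and 193 CPM in the knockout, and was not called by edgeR's test.

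Stretches with 2 called genes each were also on 3L. From 8209577 to 8240601 (31.0 kb), tut and CG7213 both fell. CG7213 had 0.128 and 0.0858 CPM in RMCE-1, against 2.62 and 2.85 CPM in the knockout, or 3 reads against 97. Its scaled ratio of the knockout over RMCE-1 was 24.8, with an exact 95% counting interval from 8.24 to 122, and its edgeR adjusted p was 0.00929. The CG7213 call was lost without either knockout library or RMCE-1 replicate 2 (adjusted p = 0.0568). CG7213 overlaps Dscam4, an adhesion molecule gene of the Dscam family, by 1955 bp on the opposite strand. Dscam4, named after its values were seen, had 10.3 and 7.55 CPM in RMCE-1, against 53.6 and 49.8 CPM in the knockout (log2 fold change -2.53, adjusted p = 0.189), so reads of the pair are uncertain. From 3515751 to 3615244 (99.5 kb), Eip63E and CG10359 both rose, CG10359 with 146 and 129 CPM in RMCE-1, against 68.7 and 80.1 CPM in the knockout (log2 fold change 0.88). The CG10359 call was lost in all 8 fits with a library left out (adjusted p up to 0.436).

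**Figure D4:**
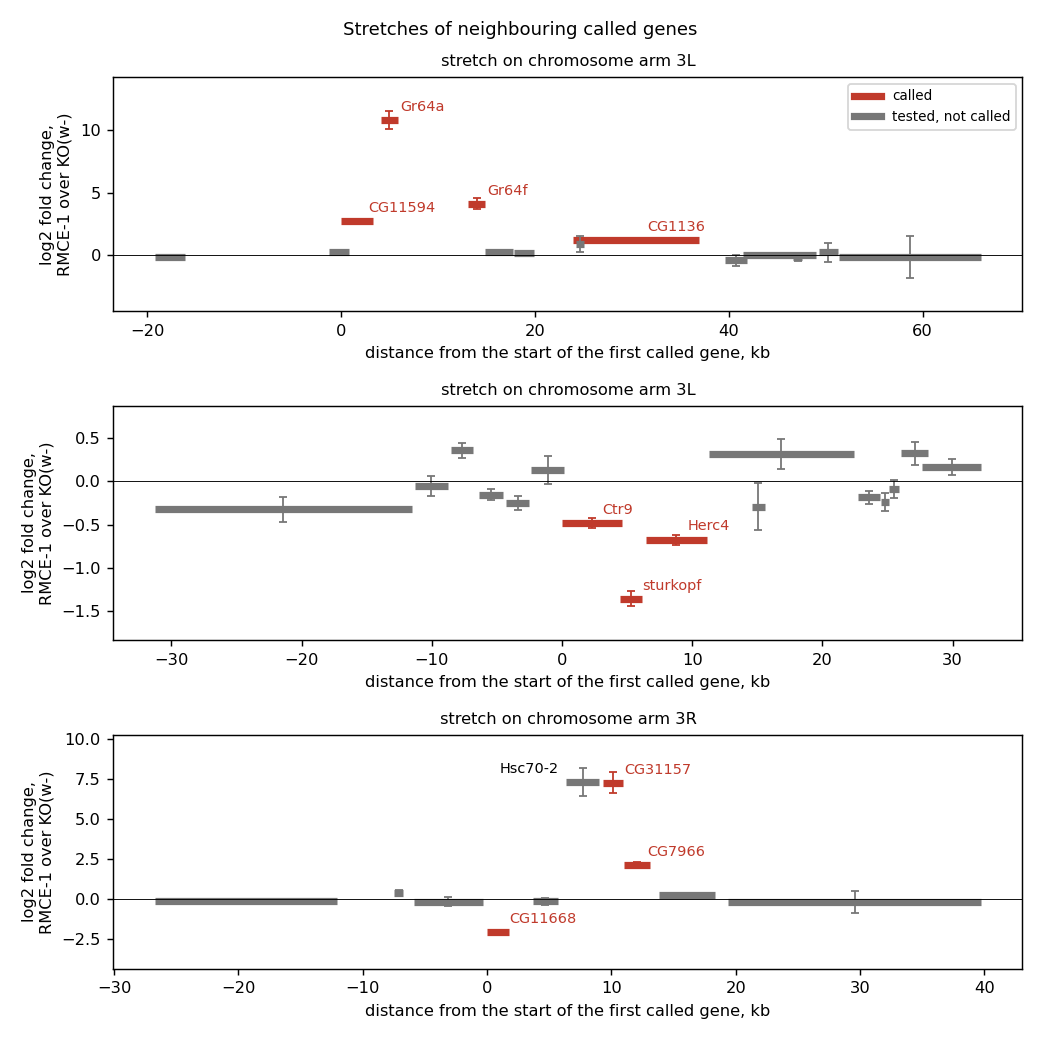
Log2 fold change (RMCE-1 over the knockout, ± SE) of each tested gene against distance along the arm in kb, for the stretches with 3 or more called genes. Called genes stand among neighbours that were not called, and the stretch with CG11668 at -2.09 and CG31157 at 7.26 holds both directions.

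At the microRNA locus no gene was called by edgeR's test or by DESeq2. The mir-11 hairpin gene had 0 reads in both RMCE-1 libraries and 0 in both knockout libraries, which allows up to 3 counts per library. RMCE-2 had 0 and 1 read and Canton S 2 and 0 reads. These libraries were made from long RNA, and so few reads in Canton S mean that the mir-11 counts check the labels only weakly. mir-998 had 14 and 9 reads in RMCE-1, against 12 and 13 in the knockout, or 0.897 and 0.772 CPM in RMCE-1, against 0.642 and 0.772 CPM in the knockout. Its log2 fold change was 0.24 ± 0.39 (SE; adjusted p = 0.896 by edgeR's test), a difference smaller than its SE. mir-998 lies inside E2f1 on the same strand, so reads of unspliced E2f1 may fall in it. E2f1 had 209 and 201 CPM in RMCE-1, against 228 and 230.4 CPM in the knockout (-0.16 ± 0.06, SE; adjusted p = 0.50). The RMCE-1 libraries lay below the knockout libraries for E2f1, and the change did not pass the test. Within 1 Mb of E2f1, 186 genes were tested and none was called by edgeR's test, while DESeq2 called 2. Their median log2 fold change rounded to -0.01, as did that over all genes. The smallest adjusted p there was 0.0579, for Octbeta1R, an octopamine receptor gene, and 9.03% of all tested genes passed an unadjusted p under 0.05.

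None of the genes reported as targets of miR-11 or miR-998 was called by edgeR's test or DESeq2, and none of the 5 passed an unadjusted p under 0.05. Cbl had 55.3 and 52.6 CPM in RMCE-1, against 57.0 and 60.6 CPM in the knockout (log2 fold change -0.12, adjusted p = 0.638 by edgeR's test). The death inducer rpr had 7.24 and 21.7 CPM in RMCE-1, against 8.35 and 6.535 CPM in the knockout (log2 fold change 0.95, adjusted p = 0.652; -0.04 without RMCE-1 replicate 2), so its replicates in RMCE-1 lay on both sides of the knockout. The inducer hid had 50.8 and 71.6 CPM in RMCE-1, against 46.1 and 49.1 CPM in the knockout (adjusted p = 0.573). For rpr and hid the high value was that of RMCE-1 replicate 2, the library with high Hsp70 and fat body transcripts, and the part of those transcripts in the result was not tested. The inducer grim had 0.577 and 1.37 CPM in RMCE-1, against 1.498 and 0.535 CPM in the knockout, and skl had 0.962 and 1.201 CPM in RMCE-1, against 2.03 and 0.416 CPM in the knockout, with overlapping libraries in both. Of 14 caspases, their adaptor and inhibitors tested, none was called by edgeR's test or DESeq2 or passed an unadjusted p under 0.05. Of these 14, 3 had both RMCE-1 libraries above both knockout libraries (18.4% over all tested genes) and 2 both below (21.1%). The list's median log2 fold change was 0.07. Diap1, the main inhibitor of caspases, had 274.5 and 320.4 CPM in RMCE-1, against 280.5 and 274 CPM in the knockout.

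Genes of mitosis and cytokinesis in RMCE-1 lay mostly under the knockout's levels, without any call. Their levels summed to 2837 and 2609 CPM in RMCE-1, against 3029 and 3042 CPM in the knockout. RMCE-2 had sums of 2813 and 2632 CPM and Canton S of 2516 and 2543 CPM, so the knockout was the highest stock. None of 28 tested was called by edgeR's test or DESeq2. None had both RMCE-1 libraries above both knockout libraries (18.4% over all tested genes), and 21 had both below (21.1%). The median log2 fold change was -0.18, against -0.01 over all tested genes, and it was -0.14 without RMCE-1 replicate 2 and -0.21 without RMCE-1 replicate 1. At an unadjusted p under 0.05, 13 were lower and none higher, while 9.03% of all genes passed in either direction. The values were small next to the calls above. The chromosomal passenger kinase aurB, named with feo and fzy after their values were seen, had 31.0 and 27.8 CPM in RMCE-1, against 38.8 and 37.2 CPM in the knockout (-0.37, adjusted p = 0.189 by edgeR's test). The midzone microtubule protein gene feo had 99.5 and 103 CPM in RMCE-1, against 116 and 123 CPM in the knockout (-0.24, adjusted p = 0.347). The anaphase activator fzy had 71.7 and 64.8 CPM in RMCE-1, against 82.0 and 79.9 CPM in the knockout (-0.25, adjusted p = 0.379). The most abundant members did not separate the stocks: stg, the phosphatase that starts mitosis, had 286 and 259 CPM in RMCE-1, against 279 and 289 CPM in the knockout, and CycA had 261 and 221 CPM in RMCE-1, against 252 and 249 CPM in the knockout. Among 19 genes of DNA replication and E2F partners none was called by either test, 1 passed an unadjusted p under 0.05, 5 had both RMCE-1 libraries below both knockout libraries and none both above, with a median of -0.06.

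Ecdysone-inducible effector genes, which respond to the moulting hormone, lay mostly higher in RMCE-1 than in the knockout. Their levels summed to 2090 and 2088 CPM in RMCE-1, against 1582 and 1664 CPM in the knockout. RMCE-2 had sums of 2248 and 2635 CPM and Canton S of 2369 and 2601 CPM, so the knockout was the lowest stock. Of 13 tested, 1 was called higher and none lower by edgeR's test, DESeq2 called 2 higher, and 5 were higher at an unadjusted p under 0.05. In 8 both RMCE-1 libraries lay above both knockout libraries (18.4% over all tested genes), and in none both below (21.1%). The list's median log2 fold change was 0.37, against -0.01 over all tested genes. The called gene was Eip63E, a cyclin-dependent kinase gene induced by ecdysone, with 138 and 144 CPM in RMCE-1, against 107 and 109 CPM in the knockout (0.39 ± 0.05, SE; adjusted p = 0.0492 by edgeR's test). RMCE-2 (126 and 127 CPM) and Canton S (143 and 142 CPM) were also above the knockout for Eip63E. The Eip63E call held only without RMCE-1 replicate 1 among the fits with a library left out, and its adjusted p was 0.145 without RMCE-1 replicate 2, 0.554 without knockout replicate 1 and 0.142 with library totals. ImpL2, a secreted insulin-binding protein gene named after its values were seen, had 147 and 230 CPM in RMCE-1, against 83.7 and 97.8 CPM in the knockout (1.05, adjusted p = 0.186), and was called by DESeq2. The regulators of the same response did not lean one way: of 12 tested none was called by edgeR's test, DESeq2 called Hr3 higher, 2 passed an unadjusted p under 0.05, 1 had both RMCE-1 libraries above and 2 both below, and the median was 0.00. The receptor gene EcR had 293 and 277 CPM in RMCE-1, against 285 and 289 CPM in the knockout.

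No gene of the retinal determination, antennal and photoreceptor fate lists was called by edgeR's test. Among 12 retinal determination genes tested, 2 were lower at an unadjusted p under 0.05, and the median log2 fold change was -0.10. In 8 of them both RMCE-1 libraries lay below both knockout libraries, and in none both above. Over all tested genes these shares were 21.1% below and 18.4% above. The member dac, named after its values were seen, had 171 and 163 CPM in RMCE-1, against 221 and 215 CPM in the knockout (-0.38, adjusted p = 0.091 by edgeR's test), and was called lower by DESeq2 and with library totals. For dac, RMCE-2 had 171 and 169 CPM and Canton S 190 and 205 CPM. The retinal determination list summed to 2051 and 1859 CPM in RMCE-1, against 2091 and 2182 CPM in the knockout. Its sums were 1994 and 2006 CPM in RMCE-2 and 1958 and 2047 CPM in Canton S. Of 7 antennal genes tested, 3 were lower at an unadjusted p under 0.05, 5 had both RMCE-1 libraries below and 1 both above, with a median of -0.23. In that list bab2, which patterns the distal leg and antenna, had 86.0 and 81.4 CPM in RMCE-1, against 112 and 114 CPM in the knockout (-0.44, adjusted p = 0.0775 by edgeR's test and 0.00269 by DESeq2), and ct had 80.5 and 87.6 CPM in RMCE-1, against 98.5 and 98.7 CPM in the knockout (adjusted p = 0.392). The sources used here do not say how much antennal tissue each pool of discs held, and its part in these values was not tested. Of 14 photoreceptor fate genes, none of which DESeq2 called, 2 were lower at an unadjusted p under 0.05, and 4 had both RMCE-1 libraries below and 1 both above.

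Signalling pathways of the disc gave no edgeR call, and DESeq2 called upd3 alone among the lists of this paragraph. At an unadjusted p under 0.05, 2 Notch genes, 1 Ras pathway gene and 2 Wingless or JAK-STAT genes were lower, and 1 Enhancer of split gene and 1 Wingless or JAK-STAT gene were higher. Over all tested genes, 21.1% had both RMCE-1 libraries below both knockout libraries and 18.4% both above. Among 15 genes of the Notch receptor, its ligands and machinery, 9 had both below and none both above. Their median log2 fold change was -0.10. The receptor gene N had 738 and 724 CPM in RMCE-1, against 778 and 867 CPM in the knockout (adjusted p = 0.582 by edgeR's test). The 11 Enhancer of split genes tested, direct targets of Notch, had a median of 0.05, with 2 above and none below. Among 25 genes of EGFR and Ras signalling, 6 had both RMCE-1 libraries below and 1 both above, with a median of -0.02. Egfr had 342 and 348 CPM in RMCE-1, against 363 and 387 CPM in the knockout. Among 16 Wingless and JAK-STAT genes, 4 had both RMCE-1 libraries below and 2 both above, with a median of -0.07. In that list 3 genes, upd2 among them, were over 4-fold higher in RMCE-1 replicate 2 than in its replicate. Among 67 nuclear genes of oxidative phosphorylation, none of which was called by either test, 24 had both RMCE-1 libraries below and 1 both above, 4 were lower at an unadjusted p under 0.05, and the median was -0.11, or -0.01 without RMCE-1 replicate 2. Among 20 genes of the mitochondrial genome 9 had both below and 1 both above, with a median of -0.13. The mitochondrial gene mt:CoI, a subunit of cytochrome oxidase, had 8999 and 8357 CPM in RMCE-1, against 9498 and 9362 CPM in the knockout.

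The lists of this paragraph held no gene called by edgeR's test, and among them DESeq2 called the muscle gene TpnC73F alone. No more than 2 members of any of these lists were higher, or lower, at an unadjusted p under 0.05. Median log2 fold changes were near that of all genes (-0.01) for 82 ribosomal protein genes (-0.01), 12 furrow genes (0.00), 12 muscle genes (-0.01), 14 dosage compensation and sex determination genes (-0.03) and 10 glial genes (-0.05). Dosage compensation and sex determination genes summed to 2152 and 2829 CPM in RMCE-1, against 2696 and 2809 CPM in the knockout, so RMCE-1 replicate 1 had the lowest sum. The median of 13 phototransduction genes was 0.03, or 0.22 without RMCE-1 replicate 1, and that of 22 immune genes was 0.04, or -0.32 without RMCE-1 replicate 2. For the muscle list it was 0.17 without RMCE-1 replicate 2 and -0.17 without RMCE-1 replicate 1. For 15 genes of Myc and ribosome assembly it was -0.06, and Myc itself, the growth regulator, had 507 and 589 CPM in RMCE-1, against 473 and 485 CPM in the knockout. For 13 Hippo and Fat genes it was -0.07, for 111 histone genes 0.07 (0.26 without RMCE-1 replicate 1), for 6 small heat shock genes 0.09, for 7 clock genes 0.10 (0.23 without RMCE-1 replicate 1) and for 14 neuronal genes -0.13 (-0.22 without RMCE-1 replicate 2). The hemocyte list, with 15 genes tested, had a median of 0.10, or -0.09 without RMCE-1 replicate 2. Few testis (3) and midgut (4) markers had enough counts, and no Y-linked gene did. The glial regulator repo had 12.9 and 13.4 CPM in RMCE-1, against 19.7 and 17.1 CPM in the knockout, and was not called.

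Heat-inducible Hsp70 genes were high in RMCE-1 replicate 2 alone of the 4 libraries. The 6 Hsp70 genes summed to 20.1 and 4166 CPM in RMCE-1, against 18.2 and 17.5 CPM in the knockout. The other libraries with raised sums were those of RMCE-2, at 723 and 91.8 CPM, while Canton S had 10.02 and 18.0 CPM. RMCE-1 replicate 1 was at the knockout's level, none of the Hsp70 and Hsp68 genes was called by edgeR's test or passed an unadjusted p under 0.05, and DESeq2 called the 6 Hsp70 genes higher. The list's median log2 fold change was 7.07 with both RMCE-1 libraries and 0.12 without replicate 2. Near-identical Hsp70 copies may share reads, so their sum is given in place of single copies. Hsp68 had 22.8 and 844 CPM in RMCE-1, against 14.8 and 27.1 CPM in the knockout. The small heat shock gene Hsp26 had 140 and 826 CPM in RMCE-1, against 129 and 141 CPM in the knockout. Among 8 constitutive chaperones tested, 3 were higher at an unadjusted p under 0.05. In 5 both RMCE-1 libraries lay above both knockout libraries (18.4% over all tested genes), and in 1 both below (21.1%). Their median log2 fold change was 0.45, or 0.11 without RMCE-1 replicate 2. Hsp83, the fly Hsp90, had 3650.0 and 5361 CPM in RMCE-1, against 2856 and 2953 CPM in the knockout, with an adjusted p of 0.431 by edgeR's test and 0.0208 by DESeq2.

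Wound and cytokine genes followed the same library. Of 13 genes of JNK signalling and wound response none was called by edgeR's test or DESeq2, and 1 was higher at an unadjusted p under 0.05. In 5 both RMCE-1 libraries lay above both knockout libraries (18.4% over all tested genes), and in 2 both below (21.1%). The list's median log2 fold change was 0.62, or 0.02 without RMCE-1 replicate 2. Mmp1, a matrix metalloproteinase gene, had 70.5 and 238 CPM in RMCE-1, against 55.5 and 78.9 CPM in the knockout. The JNK phosphatase gene puc had 66.5 and 208 CPM in RMCE-1, against 67.4 and 71.0 CPM in the knockout. Ilp8, a relaxin-like peptide that damaged discs release to delay pupariation, had 0.321 and 64.3 CPM in RMCE-1, against 0.321 and 0.475 CPM in the knockout. The cytokine gene upd2 had 1.03 and 68.1 CPM in RMCE-1, against 0.749 and 0.713 CPM in the knockout, and the transcription factor gene Ets21C had 1.28 and 75.4 CPM in RMCE-1, against 1.61 and 1.72 CPM in the knockout. In puc, Ilp8, upd2 and Ets21C, RMCE-1 replicate 1 lay at, below or within 1 CPM of the knockout libraries. These genes were named from the differences between the RMCE-1 replicates, after their values were seen.

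Fat body and salivary gland transcripts did the same. The storage protein gene Lsp2 had 13.1 and 2565 CPM in RMCE-1, against 40.7 and 8.73 CPM in the knockout, and Fbp1, a fat body protein gene, had 17.8 and 2381 CPM in RMCE-1, against 39.4 and 10.2 CPM in the knockout. The glue gene Sgs7 had 2.12 and 1522 CPM in RMCE-1, against 55.9 and 87.2 CPM in the knockout. In all 3 genes RMCE-1 replicate 2 was by far the highest of the libraries compared, and RMCE-1 replicate 1 was within or below the range of the knockout. The other stocks also held such transcripts. Fat body markers summed to 470 and 2065 CPM in RMCE-2 and 997 and 668 CPM in Canton S. Salivary gland markers summed to 212 and 222 CPM in RMCE-2 and 2079 and 1244 CPM in Canton S. The median log2 fold change of the fat body list was 4.79, or -1.14 without RMCE-1 replicate 2, and that of the salivary gland list was 0.43, or -3.12 without it. The direction of both lists therefore turned on 1 library, and no member of either was called by edgeR's test or DESeq2. Lsp1gamma, another storage protein gene, was also higher in RMCE-1 replicate 2 than in replicate 1, but both libraries lay below the knockout. It had 0.256 and 22.0 CPM in RMCE-1, against 42.8 and 33.7 CPM in the knockout.

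**Figure D5:**
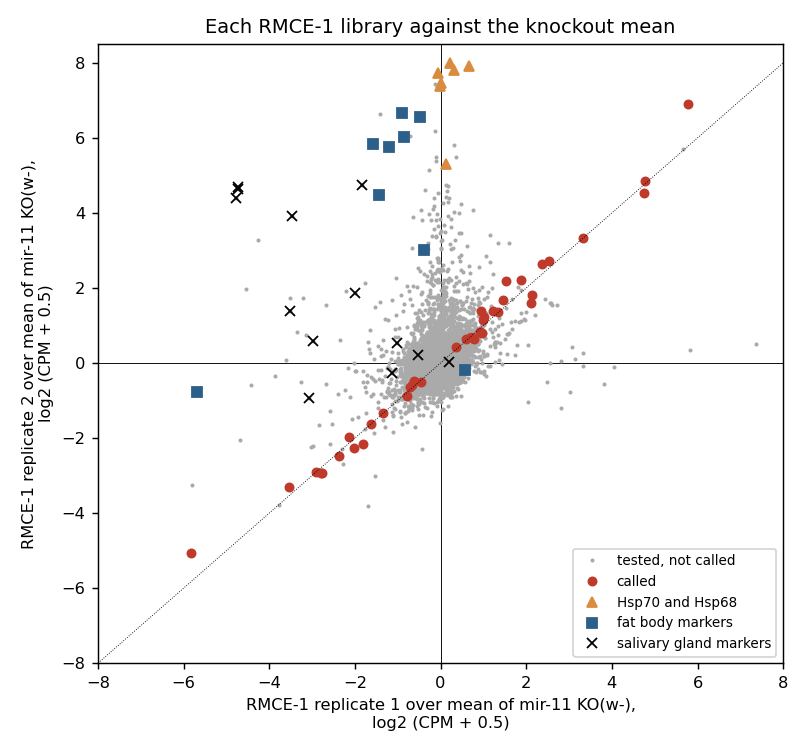
Log2 ratio of each RMCE-1 library to the knockout mean (CPM + 0.5), replicate 1 on the x axis and replicate 2 on the y axis, for all tested genes. Called genes lie near the diagonal, and the calls themselves favour genes with close replicates. The 7 Hsp70 and Hsp68 genes are high in replicate 2 alone. Most fat body genes are high in replicate 2 and below the knockout mean in replicate 1.

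Set against the knockout mean, 45 genes (0.407%) with at least 5 CPM in the higher group were at least 2-fold higher in both RMCE-1 libraries, 241 (2.18%) in replicate 2 alone and 38 (0.343%) in replicate 1 alone. At least 2-fold lower were 26 (0.235%) in both, 17 (0.154%) in replicate 2 alone and 72 (0.651%) in replicate 1 alone. These counts carry no test. Glutathione S-transferase genes, which detoxify electrophiles, had no edgeR call among 31 tested, with 2 higher and 2 lower at an unadjusted p under 0.05. Of these 31, 8 had both RMCE-1 libraries above both knockout libraries (18.4% over all tested genes) and 2 both below (21.1%). Their median log2 fold change was 0.09. GstD3, named after its values were seen, had 0.577 and 5.83 CPM in RMCE-1, against 58.7 and 59.7 CPM in the knockout, and 97.4 and 62.5 CPM in RMCE-2. Both RMCE-1 libraries lay far below the knockout for GstD3 (-4.30, adjusted p = 0.245 by edgeR's test), and it was called by DESeq2 and without RMCE-1 replicate 2.

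The levels in the other stocks placed the 39 called genes in different orders, and comparisons that share libraries are given only side by side. In direct tests with Canton S, 671 of 11068 genes (6.06%) were called in RMCE-1 and 526 (4.75%) in the knockout. In direct tests of RMCE-2, 186 genes (1.68%) were called against RMCE-1 and 64 (0.578%) against the knockout, by the same edgeR test. For Map205, ea, CG11668 and CG31821, which fell in RMCE-1, the knockout, RMCE-2 and Canton S lay together above RMCE-1. For Gr64a, Gr64f, CG31157, CG11594, CG7966 and CG1136, which rose, the same stocks lay together below it. For Cyp6a17, Cht5, Dnaaf3 and snoRNA:Psi28S-2648, the knockout was the stock that stood apart from the rest. For tut, sturkopf, Herc4 and Tektin-C, RMCE-2 and the knockout lay above both RMCE-1 and Canton S.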

How the data were processed

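The files hold whole-number counts of reads per gene for each library, deposited by the authors without normalization. Per the submitters' processing notes, the tools were featureCounts, Subread, TopHat2, FastQC and CASAVA 1.8.2. The sources used here do not give the genome build, annotation or strand setting. Per the labels' protocols, Trizol total RNA was depleted of ribosomal RNA and sequenced as directional single-end reads of 50 bp; a HiSeq2000 and a HiScanSQ are both named as the sequencer. Near-identical and overlapping genes may share reads. Of 15682 gene identifiers, 15002 matched a symbol and position in Ensembl 115 (BDGP6.54) and 680 did not.

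Counts were tested with edgeR 4.0.16 (R 4.3.3): TMM factors from 0.971 to 1.036, the filterByExpr filter (11068 genes kept, 4614 left out), a mean per stock over all 8 libraries, and the robust quasi-likelihood test, with 4 residual and a median of 3.03 prior degrees of freedom. The biological coefficient of variation common to all genes was 20.6%. Genes whose Benjamini-Hochberg adjusted p, over the whole table, lay under 0.05 were called. The fit was also run on simulated data, and the outcome is not given or used here. Adjusted p-values in the text are from this test unless another is named. DESeq2 1.42.0, RLE size factors, library totals, filters, the 4 libraries alone, a replicate block and each library left out were alternatives. Counting intervals, exact at 95%, and floors of 3 counts cover counting error only.

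Named genes are up to 15 higher and 15 lower by fold change, among called genes with at least 2-fold change, libraries that do not overlap and a mean of at least 5 CPM in either stock; the locus, its reported targets and w; up to 4 called members of each of 46 gene lists, or else up to 2 by mean level; and genes of the 3 runs with the most called neighbours. Other genes, including called genes under 2-fold, were chosen after their values were seen. The lists held 1339 members, of which 1313 matched an identifier. Members and lists were chosen with earlier results of these data known. A search for miR-11 and miR-998 seed matches was not run, and no sequence was used here.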

Additional observations from a re-analysis of the deposited data

Results flagged for a closer look

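The following genes differed between RMCE-2 and RMCE-1 in a direct test (edgeR, Benjamini-Hochberg adjustment, 186 of 11068 genes called), so the RMCE stocks did not stand in the same relation to the knockout. This test shares the RMCE-1 libraries with the comparison above, and values are log2 fold changes of RMCE-2 over RMCE-1. Among genes that rose in RMCE-1, RMCE-2 was lower in Gr64a (-10.81, with both RMCE-2 libraries at 0), CG31157 (-6.70), Gr64f (-4.33), CG11594 (-2.30), CG8066 (-2.15), CG7966 (-2.09), FBgn0085759 (-1.89), CG18549 (-1.64), CG1136 (-1.32), CG10359 (-0.74) and CG15011 (-0.49). It was higher in sut2 (1.11), Cpr97Ea (1.34) and CG8785 (0.81). Among genes that fell in RMCE-1, RMCE-2 was higher in Tektin-C (8.60), CG7213 (5.74), CG31821 (5.50), tut (4.69), Map205 (3.47), CG11668 (1.75), sturkopf (1.57), ea (1.47), Herc4 (0.71), Oseg4 (0.54) and Ctr9 (0.48). The antennal genes ct (0.61) and bab2 (0.58) were higher and the opsin gene Rh6 (-0.74) lower in RMCE-2, and none of these 3 was called between RMCE-1 and the knockout. The smallest adjusted p was that of Map205, at 4.64e-05, and the largest was that of CG15011, at 0.0463.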

How the results depend on the processing

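Against the 39 calls in RMCE-1 set against the knockout, DESeq2 gave 143, with all 39 among them, and a fit with the replicate block gave 16. The labels do not say that replicate numbers pair the samples. Deviations of same-numbered libraries correlated at -0.21 between RMCE-1 and the knockout, at 0.32 between the knockout and Canton S, and below 0 in the other 4 pairs of stocks. With 2 libraries per stock, these values cannot settle whether same-numbered libraries shared a day or batch. Leaving out a library gave 4 to 177 calls: 4 without either knockout library, 15 without RMCE-1 replicate 2, 17 without RMCE-2 replicate 1, 22 without RMCE-2 replicate 2 and 177 without RMCE-1 replicate 1. The count of calls with at least 2-fold change and no overlap, 27 as reported, was 85 with DESeq2, 14 with the block and 4 to 78 with a library left out. For the 186 calls of RMCE-2 against RMCE-1, DESeq2 gave 422, the 4 libraries alone 17, the block 55 and left-out libraries 18 to 274. The causes were not tested. The split into higher and lower was 20 to 30 with library totals and 20 to 19 with no filter, in place of 23 to 16, and 184 to 77 for RMCE-2 against RMCE-1 with library totals. RLE size factors gave 39 calls (38 shared), a filter of 50 counts 42 and the 4 libraries alone 33 (19 shared). None of the 39 called genes changed sign in any of these fits. With a library left out, this follows from libraries that do not overlap. Of the 116 named genes with a fold change, 39, none of them called by edgeR as reported, changed sign in at least 1 fit. Among these, as log2 fold changes, were rpr (0.95, or -0.04 without RMCE-1 replicate 2), grim (-0.10, or 0.43 without RMCE-1 replicate 1) and Diap1 (0.10, or -0.01 without RMCE-1 replicate 2). E2f1 and mir-998 stayed uncalled in each fit that gave them a value. Precision is limited by 2 libraries per stock and by depths from 11929158 to 19670470 counts.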
